A study of Mus musculus with 4 samples.

Results

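Interferon-stimulated and antigen presentation genes were followed in NIH-3T3 cells, an established line of mouse fibroblasts, with and without activators of chaperone-mediated autophagy (CMA), a route that takes single proteins into lysosomes for breakdown. The group was set by a list of 41 mouse gene symbols, and array probes were assigned to it through the transcript accession that each probe carries. For 39 of the 41 symbols a probe was found, out of 36838 gene names compared on the arrays. The accessions matched here named no probe for the dynamin-like antiviral genes Mx1 and Mx2, so no value is given for them. The 39 measured members formed 4 arms: 4 transcription factors, 9 RNA sensors and RNA-activated enzymes, 19 effectors and 7 antigen presentation genes.

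The study held 4 cultures of NIH-3T3 cells, labelled WT, with 1 array each. The untreated culture is labelled with the treatment None, and the others received AR7, CA39 or CA77 at 20 µM and were collected after 24 h. AR7 is the first compound of the series, and CA39 and CA77 are analogues derived from it, all given here at a matched dose and time. The cells were confluent when the compounds, in DMSO, were added. The labels name no vehicle for the untreated culture, so an effect of DMSO and of a compound cannot be told apart in what the treated cultures share. All cultures came from 1 line, and each group was 1 culture, so differences are described without any test or p-value.

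Interferons are secreted proteins, and those of type I are released by cells on sensing foreign nucleic acid. Type I interferon binds the receptor chains Ifnar1 and Ifnar2, whose kinases Jak1 and Tyk2 activate a complex, ISGF3, that holds Stat2 and Irf9 and binds the interferon-stimulated response element (ISRE) in promoters. Interferon gamma instead acts at the gamma-activated site (GAS) and raises guanylate-binding proteins, immunity-related GTPases, the immunoproteasome and the loading machinery of MHC class I. Fibroblasts are a classical cell type of interferon research, since most of these genes have a basal level there and respond to both kinds of interferon.

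Each value is a log2 level, the normalized brightness of a probe on 1 array, and each comparison is a log2 difference between 2 arrays, where 1 unit stands for 2-fold. A probe counted as detected when its signal was well above background, and a level under that limit was raised to the 1st percentile of detected signal on its array, which was 5.88 for the untreated array, 6.82 for AR7, 6.87 for CA39 and 6.26 for CA77 (log2). A difference against such a level is a lower bound. Repeat spots of the same probe gave a tolerance of 0.16 (log2) for the difference of 2 arrays, which covers the error within an array and not that between cultures. Fewer probes were well above background on the treated arrays, with 69.7% in untreated cells, 52.9% under AR7, 52.2% under CA39 and 61.6% under CA77. The names of the scanner files, read by the usual Agilent pattern, put the untreated array in row 1 of the slide, the treated arrays in row 2 and the CA77 array in a second scan. If so, treatment cannot be told apart from row, nor CA77 from its scan.

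The promoters of the member genes were examined first, because the ISRE is the element through which most of them are known to answer interferon. Promoters from RefSeq (build GRCm38.p6), reaching from 250 bases before to 50 bases after the annotated start, were given for 31 of the 41 genes, with 36 starts in all. The ISRE was searched as GAAA, any 2 bases and GAAA again, and the GAS as TTCNNNGAA, each on both strands. ISRE letters were present in 16 of the 36 promoters (44.4%) and in 1131 of all 32851 promoters of the same length (3.44%). GAS letters were present in 9 of the 36 (25%) and in 2726 of all promoters (8.30%). By arm, the ISRE letters were found in 10 of 14 effector genes with a promoter, 4 of 7 RNA sensors and enzymes, 1 of 4 transcription factors and 1 of 6 antigen presentation genes. A match is a match of letters and does not show that a factor binds there, and the list of genes is itself one of known interferon targets.

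Printed here are stretches of 160 bases from 9 genes, chosen after the values were seen: the 8 members detected on all 4 arrays that differed by at least 1.5-fold with any compound and hold ISRE letters, and B2m as the antigen presentation gene that holds them. They lie before the annotated start, read 5′ to 3′ on the strand of the gene, and capitals mark the ISRE letters. In the order printed, they are chr4:156200819-156200978 on the minus strand for Isg15, chr8:71537473-71537632 (minus) for Bst2, chr19:34640729-34640888 (plus) for Ifit1, chr19:34583369-34583528 (plus) for Ifit3, chr10:128270248-128270407 (plus) for Stat2, chr11:48871421-48871580 (minus) for Irgm1, chr3:142620503-142620662 (plus) for Gbp2, chr3:142559884-142560043 (plus) for Gbp3 and chr2:122147527-122147686 (plus) for B2m.
Isg15: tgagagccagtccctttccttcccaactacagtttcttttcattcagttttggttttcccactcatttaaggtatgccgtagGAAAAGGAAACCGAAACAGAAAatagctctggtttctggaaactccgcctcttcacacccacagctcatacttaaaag
Bst2: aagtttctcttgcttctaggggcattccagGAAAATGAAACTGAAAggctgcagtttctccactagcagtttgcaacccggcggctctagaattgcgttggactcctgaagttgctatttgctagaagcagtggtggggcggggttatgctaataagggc
Ifit1: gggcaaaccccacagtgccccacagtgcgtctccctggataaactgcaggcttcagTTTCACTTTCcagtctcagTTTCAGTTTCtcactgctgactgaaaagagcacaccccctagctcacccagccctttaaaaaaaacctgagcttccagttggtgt
Ifit3: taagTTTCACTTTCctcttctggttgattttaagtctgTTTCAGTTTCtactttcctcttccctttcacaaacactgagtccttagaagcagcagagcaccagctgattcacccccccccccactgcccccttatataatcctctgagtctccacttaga
Stat2: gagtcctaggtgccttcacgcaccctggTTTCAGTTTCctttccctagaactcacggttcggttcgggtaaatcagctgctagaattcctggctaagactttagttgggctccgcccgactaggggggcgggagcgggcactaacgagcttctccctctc
Irgm1: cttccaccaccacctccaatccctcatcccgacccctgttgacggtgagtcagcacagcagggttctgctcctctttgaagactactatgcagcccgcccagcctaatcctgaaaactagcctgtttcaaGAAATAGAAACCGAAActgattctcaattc
Gbp2: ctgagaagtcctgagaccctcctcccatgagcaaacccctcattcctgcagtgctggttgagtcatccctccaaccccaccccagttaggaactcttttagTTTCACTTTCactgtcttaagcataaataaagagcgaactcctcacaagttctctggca
Gbp3: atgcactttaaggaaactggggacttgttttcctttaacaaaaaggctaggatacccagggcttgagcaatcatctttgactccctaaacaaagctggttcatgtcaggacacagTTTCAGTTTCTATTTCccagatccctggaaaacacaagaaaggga
B2m: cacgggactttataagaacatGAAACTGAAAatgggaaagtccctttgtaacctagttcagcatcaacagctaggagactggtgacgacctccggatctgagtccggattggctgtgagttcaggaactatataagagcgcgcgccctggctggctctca
In the Isg15 promoter 3 ISRE matches overlap, with first bases at −78, −72 and −66 relative to the start, and in Bst2 a pair of overlapping matches begins at −130 and −124. A GAS match of Bst2 begins at −136 and overlaps the ISRE letters. Ifit1 and Ifit3 each hold 2 separate matches, at −104 and −85 and at −156 and −122. The single Stat2 match lies farther out, at −222.

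**Figure D1:**
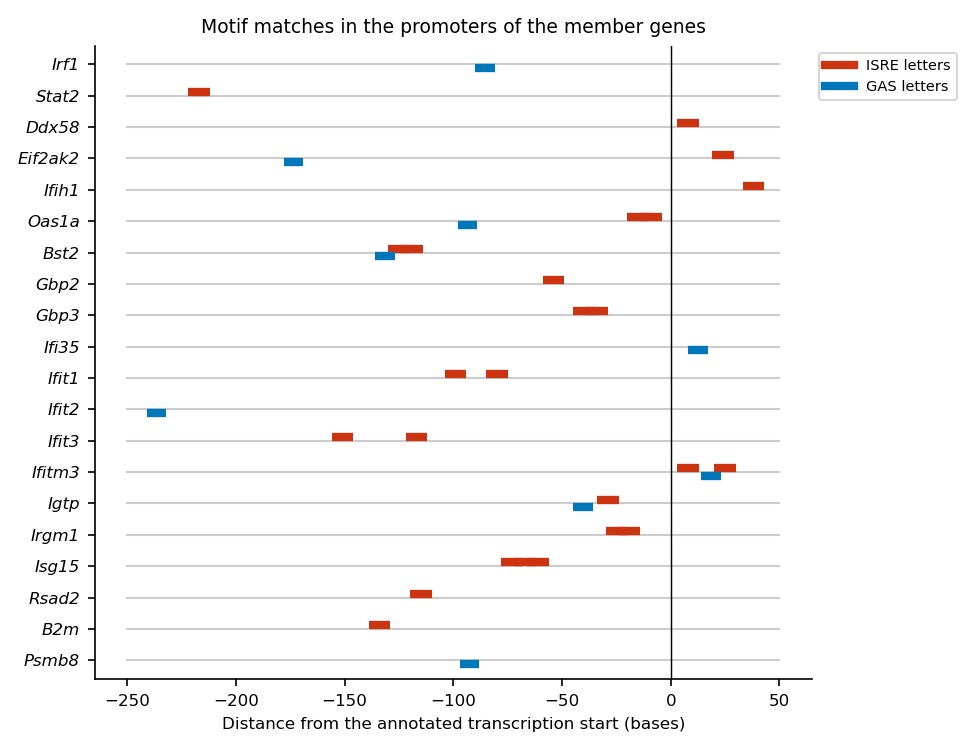
Map of motif matches in the promoters of the member genes that hold any, 1 line per gene, with the distance from the annotated transcription start in bases on the horizontal axis and the start at 0. Red bars are ISRE letters and blue bars GAS letters, and most ISRE matches of the effectors lie within 160 bases before the start.

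Levels of the members were then read on each array. All 39 were detected in untreated cells, 34 under AR7, 36 under CA39 and 38 under CA77, and 34 were detected on all 4. The exceptions were Irf7 and Ifi44 (not on AR7), Rsad2 and Oasl1 (not on AR7 and CA39) and Ifih1 (on the untreated array alone). The log2 level of members on the untreated array ran from 6.30 for Oasl1 to 17.53 for B2m, with a median of 11.45. All measured members thus passed the detection limit without any added compound, on the array where the largest share of probes passed it (69.7%). For the dimmest members detection depends on the array: Oasl1 was detected at 6.30 on untreated and not at 6.87 on AR7. In such bulk RNA, fewer cells that express a gene and less RNA per cell cannot be told apart.

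**Figure D2:**
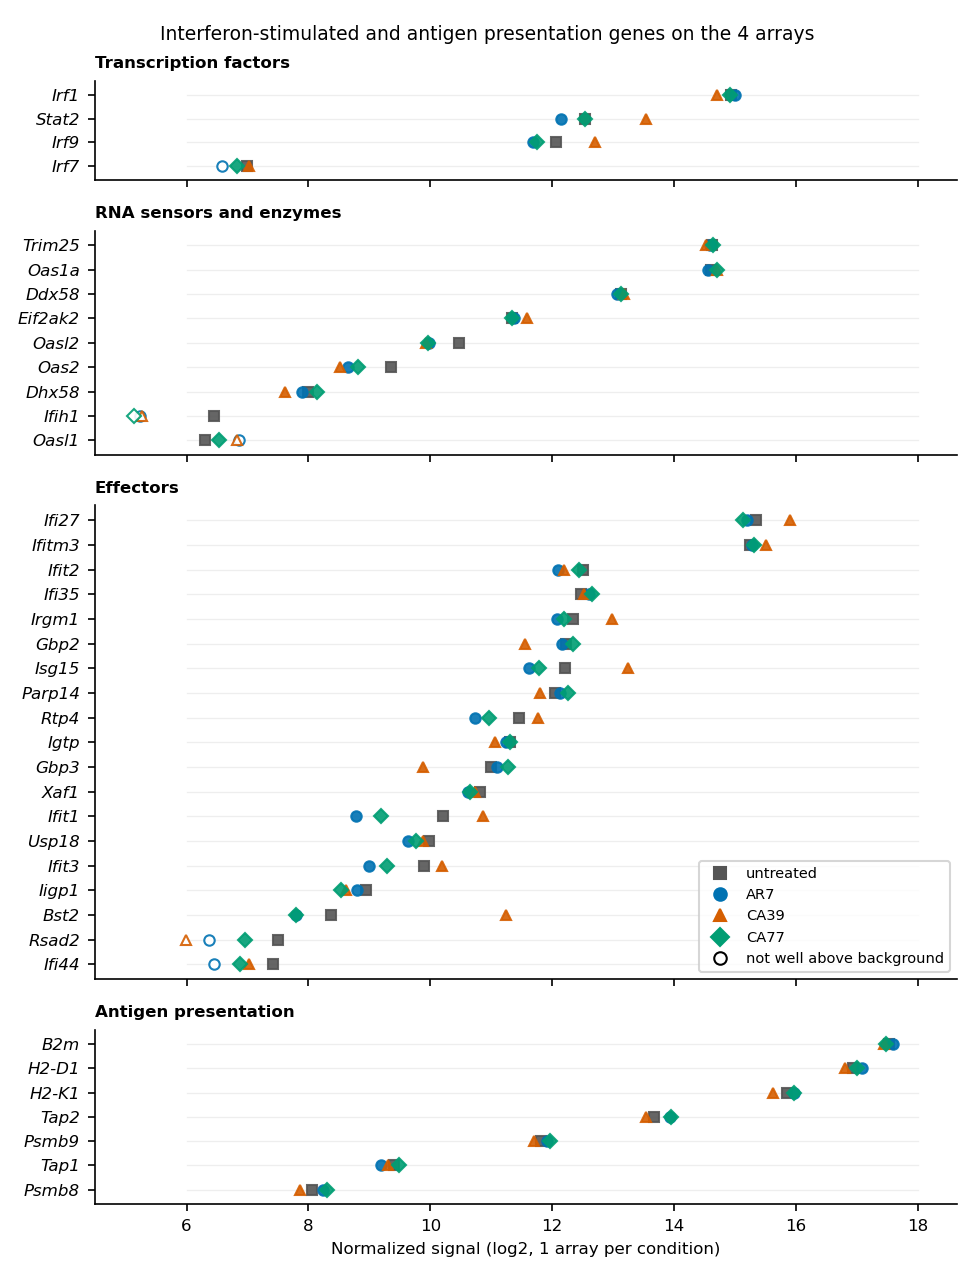
Log2 normalized signal of the 39 measured members on the untreated (square), AR7 (circle), CA39 (triangle) and CA77 (diamond) arrays, 1 array each, grouped by arm, with open symbols for signal not well above background. Most members hold their symbols close together, while Bst2 stands at 11.24 with CA39 and at 8.36 or lower on the other arrays.

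Against the untreated culture, few members passed 2-fold. With AR7 0 members were past 2-fold higher and 1 was past 2-fold lower out of 39 compared, beside 1.80% higher and 0.388% lower among all 27855 genes compared. The AR7 count of 1 lower became 3 with 75th percentile scaling, with quantile-normalized processed signal and with no floor or the lowest one, and 2 with the deposited table or the mean of probes. With CA39 3 were higher and 1 was lower out of 39, beside 3.69% higher and 1.16% lower of 27894 genes. That split became 1 higher and 2 lower with 75th percentile scaling or the deposited table, and 2 and 2 with quantile-normalized processed signal. With CA77 0 were higher and 1 was lower, beside 1.93% higher and 0.548% lower of 28126 genes. The CA77 count became 0 with an offset of 50 and after subtraction of the neighbouring spots. At 1.5-fold, AR7 had 0 members higher and 6 lower (3.26% and 1.45% of all genes), CA39 had 6 higher and 4 lower (6.91% and 3.94%), and CA77 had 0 higher and 2 lower (3.74% and 2.73%). The median difference of the members was −0.10 under AR7, −0.09 under CA39 and −0.02 under CA77 (log2), beside 0.00, 0.00 and −0.01 over all genes. The 3 comparisons share the untreated array, and these small counts describe these 4 cultures only.

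**Figure D3:**
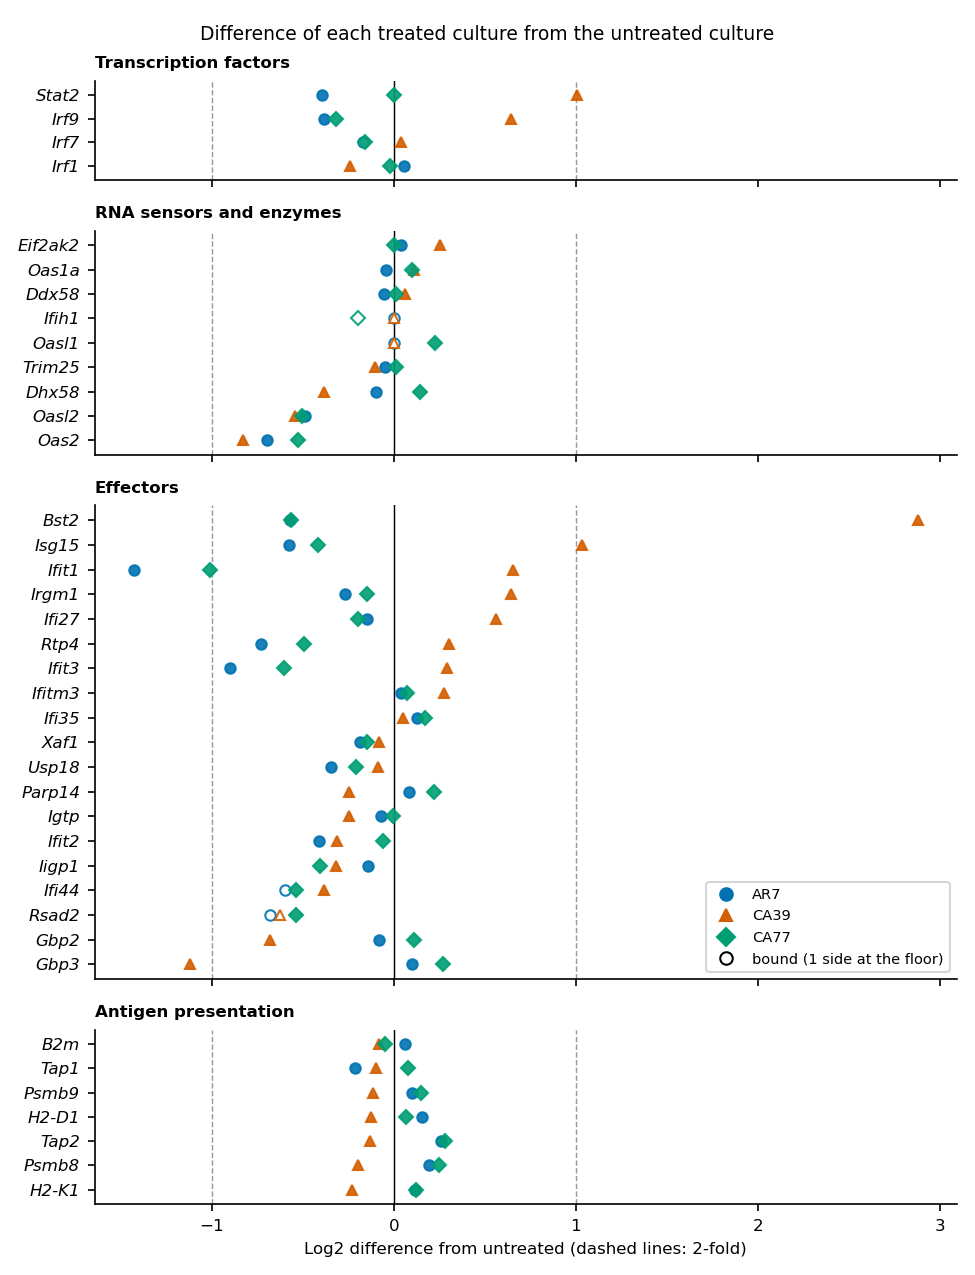
Log2 difference of each treated array from the untreated array for the 39 measured members by arm, ordered by the CA39 value, with dashed lines at 2-fold and open symbols where 1 side was raised to the floor. With CA39 (triangles) the members spread from −1.12 for Gbp3 to 2.88 for Bst2, whereas the 7 antigen presentation genes stay between −0.23 and 0.28 with every compound.

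Among the transcription factors, the ISGF3 subunits Stat2 and Irf9 were higher with CA39 and not with the other compounds. Stat2, a signal transducer of type I interferon, had a log2 level of 12.54 in untreated cells, 12.14 under AR7, 13.55 under CA39 and 12.54 under CA77. The CA39 culture was thus the high one, and the difference from untreated was 1.01 with CA39 (2.01-fold), −0.39 with AR7 and 0.00 with CA77. Irf9, the DNA-binding subunit of ISGF3, had levels of 12.06, 11.68, 12.70 and 11.74 in the same order, again highest with CA39. Its differences from untreated were 0.64 with CA39, −0.38 with AR7 and −0.32 with CA77.

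The remaining regulators of this arm, Irf1 and Irf7, did not pass 1.5-fold on their brightest probe. Irf1, a regulator induced by interferon gamma, had log2 levels of 14.94, 15.00, 14.70 and 14.92 on untreated, AR7, CA39 and CA77, a difference of −0.24 with CA39. A dimmer probe for another Irf1 transcript was detected on the untreated array only, at 7.77, so its differences are bounds of −0.95 under AR7, −0.90 under CA39 and −1.51 under CA77, which the brighter probe does not show. Irf7, which drives the second wave of type I interferon genes, was near background everywhere, with 6.99 on untreated, 7.03 on CA39 and 6.83 on CA77, and was not detected on AR7 (a bound of −0.17). The median difference of the 4 factors was −0.28 under AR7, 0.34 under CA39 and −0.09 under CA77.

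The effectors held the largest differences of the list, and the largest was that of Bst2, the tetherin that holds budding virus at the cell surface. Bst2 had a log2 level of 8.36 in untreated cells, 7.79 under AR7, 11.24 under CA39 and 7.80 under CA77. The CA39 culture stood far above the others, 2.88 above untreated (7.36-fold), which ranked 118 from the top among the 27894 genes compared. With AR7 and CA77 the differences were −0.57 and −0.56, of which the spots around the Bst2 probe shared −0.20 and −0.35 in the median, beside −0.24 with CA39. Bst2 rests on 1 probe with 1 spot. Its promoter, printed above, holds the overlapping ISRE and GAS letters.

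Isg15, the ubiquitin-like protein that is attached to other proteins in interferon-treated cells, was likewise highest with CA39. Its log2 level was 12.21 in untreated cells, 11.63 under AR7, 13.24 under CA39 and 11.79 under CA77. The difference was 1.03 with CA39 (2.05-fold), −0.58 with AR7 and −0.42 with CA77. A second Isg15 probe, read at another place on the array, gave 8.96, 8.46, 9.87 and 8.52, with differences of 0.91, −0.49 and −0.44 for CA39, AR7 and CA77. The CA39 value of Isg15 was therefore just above 2-fold on the brighter probe and just under it on the dimmer one.

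Ifit1, which binds viral RNA that lacks the cap methylation of the host, was past 2-fold lower with AR7 and with CA77. Its log2 level was 10.20 in untreated cells, 8.78 under AR7, 10.86 under CA39 and 9.20 under CA77. The AR7 and CA77 cultures were the low ones, with differences of −1.43 (2.69-fold lower) and −1.01 (2.01-fold lower), and CA39 was 0.66 above untreated. Ifit3, of the same family, ran in the same order at smaller size, with levels of 9.89, 8.99, 10.18 and 9.29 and differences of −0.90 under AR7, 0.29 under CA39 and −0.60 under CA77. The AR7 value of Ifit3 was past 2-fold in 3 of 10 alternatives, down to −1.05. The Ifit3 probe may also read the close copy Ifit3b. Ifit2, a further member of the family, had differences of −0.41, −0.31 and −0.06 with AR7, CA39 and CA77.

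Rtp4, a chaperone of receptors that is strongly induced by interferon, had log2 levels of 11.45, 10.73, 11.76 and 10.96 on untreated, AR7, CA39 and CA77. It was low with AR7 (−0.73) and CA77 (−0.50) and 0.30 above untreated with CA39, which became 0.13, within the tolerance, after subtraction of the neighbouring spots. Rsad2, the antiviral enzyme viperin, had 7.50 on untreated and 6.96 on CA77 and was not well above background on AR7 and CA39, where it was at least 1.60-fold and at least 1.55-fold lower than untreated. Its AR7 value lay between −1.16 and −0.50 over 9 alternatives and was past 2-fold in 4 of them. Its CA39 value lay between −1.51 and −0.47 and was past 2-fold in 5 of 9. The bounds of Rsad2 thus hold for the settings as reported only. Ifi44 had 7.42 on untreated, 7.03 on CA39 and 6.88 on CA77 and was not detected on AR7, a bound of at least 1.51-fold lower. Over 10 alternatives that AR7 value of Ifi44 lay between −0.97 and −0.44. Both genes were highest on the untreated array, at levels near the dim end of the list. Usp18, which takes Isg15 off proteins and dampens the receptor, differed by −0.34, −0.09 and −0.21 with AR7, CA39 and CA77.

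The GTPases of interferon gamma did not move as a block. Irgm1, an immunity-related GTPase that acts on vacuoles of parasites, had log2 levels of 12.34 in untreated cells, 12.08 under AR7, 12.99 under CA39 and 12.20 under CA77. Its CA39 value was the high one (0.64), and its second probe gave 0.58 there. Gbp3, a guanylate-binding protein, went the other way, with levels of 11.00, 11.10, 9.88 and 11.27 and a difference of −1.12 with CA39 (2.17-fold lower), 0.10 with AR7 and 0.27 with CA77. Gbp2 was lowest with CA39 as well, at 12.23, 12.15, 11.55 and 12.34 on untreated, AR7, CA39 and CA77, a difference of −0.68 with CA39. Gbp2 and Gbp3 are neighbouring genes of similar sequence, and signal shared between their probes was not tested. Igtp, another GTPase of this family, differed by −0.25 with CA39 and by −0.07 and −0.01 with AR7 and CA77, and Iigp1 by −0.32, −0.14 and −0.41. All of Irgm1, Gbp2 and Gbp3 hold ISRE letters in the promoters printed above, whichever way they differed with CA39.

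Of the other effectors, Ifi27, a mitochondrial protein, had log2 levels of 15.34, 15.19, 15.90 and 15.14 and was 0.56 above untreated with CA39. Ifitm3, which blocks virus entry at endosomes, was 0.27 above untreated with CA39 and within 0.08 of it with AR7 and CA77. Parp14, Ifi35 and Xaf1 differed by between −0.25 and 0.22 with any compound, although the dimmer Xaf1 probe gave −0.44 under AR7, 0.23 under CA39 and −0.31 under CA77. Over the 19 measured effectors, 11 were below untreated by more than the tolerance with AR7 and 0 above it. With CA39 8 were below and 8 above, and with CA77 10 were below and 3 above. The share of all genes beyond the tolerance was 17.5% below and 15.0% above under AR7, 27.2% below and 20.9% above under CA39, and 25.5% below and 19.4% above under CA77. The median of the effectors was −0.27 under AR7, −0.08 under CA39 and −0.20 under CA77 (log2 difference).

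The RNA sensors and RNA-activated enzymes gave 0 of 9 members past 2-fold with any compound, near the share over all genes given above. Oas2, which makes the oligoadenylates that activate RNase L, had log2 levels of 9.35 in untreated cells, 8.65 under AR7, 8.52 under CA39 and 8.82 under CA77. The untreated culture was the high one, and the differences were −0.70, −0.83 and −0.53. Oasl2, an oligoadenylate synthetase-like protein, was also lower in all treated cultures than in the untreated one they share, by −0.49, −0.54 and −0.50. In contrast, the differences of Oas1a were −0.04, 0.11 and 0.10, and those of its family member Oasl1 are bounds of 0.00 with AR7 and CA39 and a measured 0.23 with CA77, at a level near background. A dimmer Oas1a probe gave −0.08 with CA77, and both may read close copies of that gene.

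Sensors of viral RNA gave mixed values, with Dhx58 and Eif2ak2 beyond the tolerance with CA39. Ddx58 (RIG-I), which detects RNA ends without a cap, had log2 levels of 13.12, 13.07, 13.18 and 13.13 on untreated, AR7, CA39 and CA77, although its dimmer probe gave −0.28, −0.23 and −0.07. Ifih1 (MDA5), which detects long double-stranded RNA, was detected at 6.45 on the untreated array alone, close to background, so no fold is given. Dhx58 (LGP2), a regulator of both, differed by −0.10, −0.39 and 0.15 with AR7, CA39 and CA77. Eif2ak2 (PKR), the kinase that stops translation on double-stranded RNA, was 0.25 above untreated with CA39, and Trim25, the ubiquitin ligase of RIG-I, differed by −0.05, −0.10 and 0.01. The median of the arm was −0.05 under AR7, 0.00 under CA39 and 0.01 under CA77.

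The antigen presentation genes showed small differences, with 0 of 7 past 1.5-fold with any compound, a count near the share over all genes given above. B2m, the light chain of MHC class I, had log2 levels of 17.53, 17.59, 17.45 and 17.48 on untreated, AR7, CA39 and CA77. H2-K1, a class I heavy chain, had 15.85, 15.96, 15.62 and 15.97, each a mean over 10 spots, with a spot SD of 0.10, 0.12, 0.10 and 0.08. The CA39 array was the lowest for both genes, by −0.08 and −0.23 from untreated. H2-D1, the other classical heavy chain of the list, differed by 0.16, −0.13 and 0.07 with AR7, CA39 and CA77, and class I probes may read related heavy chains.

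Of the genes that supply the peptides, Psmb8, Psmb9 and Tap2 were lowest with CA39 and Tap1 with AR7. Psmb8 and Psmb9, catalytic subunits of the immunoproteasome, differed from untreated by 0.19 and 0.10 with AR7, by −0.20 and −0.11 with CA39, and by 0.25 and 0.15 with CA77. Tap2, a subunit of the peptide transporter, differed by 0.26, −0.13 and 0.28, and its partner Tap1 by −0.21, −0.10 and 0.08. With CA39 all 7 genes were below untreated, between −0.23 and −0.08, of which 2 were beyond the tolerance, beside 27.2% of all genes. Of all genes, 12598 of 27894 were below untreated by any amount with CA39. The median of the arm was 0.12 under AR7, −0.13 under CA39 and 0.12 under CA77. Without a second culture these differences cannot be told apart from differences between cultures.

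The treated cultures were next compared with each other, at the matched dose of 20 µM and 24 h. Between CA39 and AR7, 7 members were past 2-fold higher with CA39 and 1 lower out of 36 compared, beside 3.72% higher and 2.43% lower of 23075 genes. The higher ones were Bst2 (3.45), Ifit1 (2.08), Isg15 (1.61), Stat2 (1.40), Ifit3 (1.19), Irf9 (1.03) and Rtp4 (1.03), and the lower one was Gbp3 (−1.22), all as log2 differences. For each of these 7, a level above untreated with CA39 and a level below it with AR7 both added to that gap. Between CA39 and CA77, 4 were higher and 1 was lower out of 38, beside 3.98% and 2.24% of 25457 genes, namely Bst2 (3.44), Ifit1 (1.66), Isg15 (1.45), Stat2 (1.01) and Gbp3 (−1.39). Between CA77 and AR7, 0 members were past 2-fold in either direction out of 38, beside 1.16% higher and 1.40% lower of 25344 genes, and their differences ran from −0.26 to 0.42. The widest of these was Ifit1, lower with AR7 than with CA77. Each pair was compared on 1 array per compound, so no interval of the difference can be given and none of these values shows that AR7 and CA77 act alike. For the antigen presentation genes the median was −0.28 between CA39 and AR7 and −0.26 between CA39 and CA77.

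**Figure D4:**
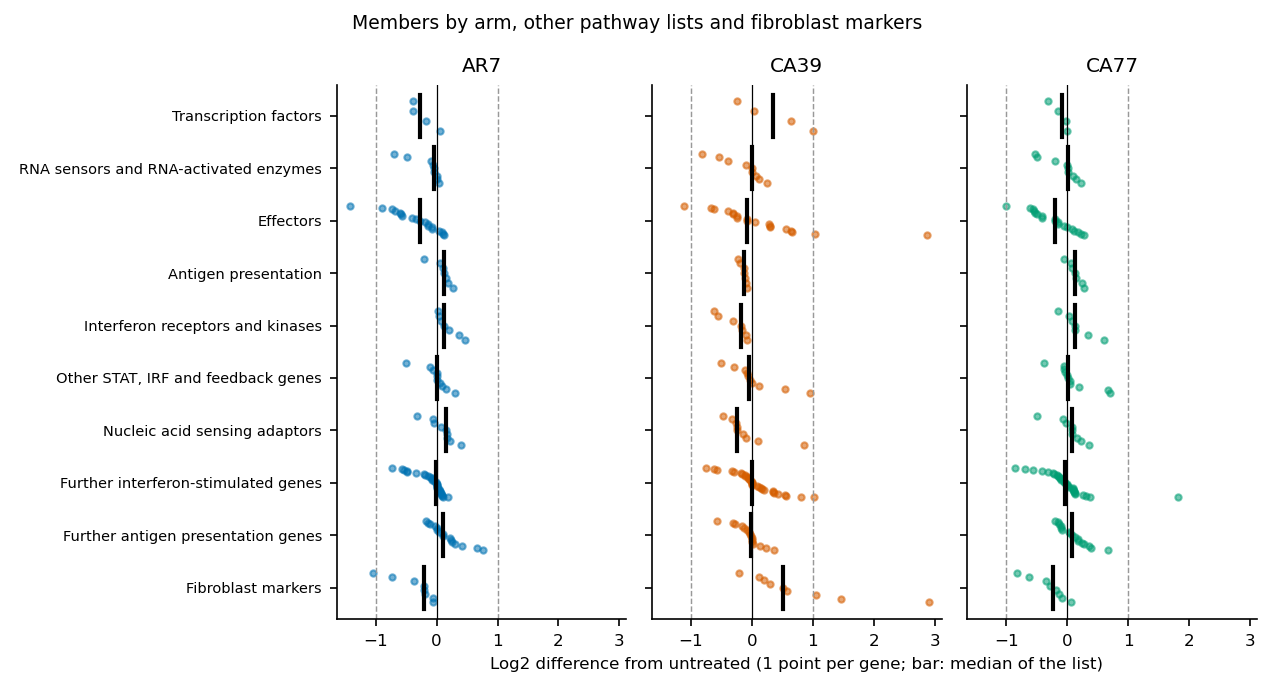
Log2 difference from untreated for AR7, CA39 and CA77 (panels), 1 point per gene and a black bar for the median of each list, over the 4 arms, 5 further lists of the pathway and the fibroblast markers, with dashed lines at 2-fold. The interferon receptors and kinases have medians of 0.12, −0.19 and 0.12, and the fibroblast markers have medians of −0.21, 0.51 and −0.23.

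The ligands, receptors and kinases upstream of these genes were read from a list of the pathway. Of 91 further pathway genes 86 had a probe. With AR7 0 of 78 compared were past 2-fold, with CA39 1 of 78 was higher and 0 lower (3.69% and 1.16% of all genes), and with CA77 1 of 80 was higher and 0 lower (1.93% and 0.548%). Ifnb1, the interferon beta gene, was detected on the untreated array only, at a log2 level of 5.88, which is the floor of that array. Interferon gamma (Ifng) and Ifna4 were below the detection limit in every culture. Other ligand probes gave signal: Ifna2, Ifna5 and Ifnl3 were detected on all 4 arrays and were lower in the treated cultures, Ifna5 by −0.53, −0.50 and −0.45 with AR7, CA39 and CA77. Ifna2 differed by −0.19, −0.17 and −0.16 in that order, beside a tolerance of 0.18 for log2 levels under 8. Ifnk, interferon kappa, had 6.06 on untreated and 7.04 on CA39, a difference of 0.98 near background, and was not detected on AR7 and CA77. The receptor chains Ifnar1 and Ifnar2 differed from untreated by 0.37 and 0.12 with AR7, by −0.17 and −0.55 with CA39, and by 0.34 and −0.15 with CA77. The interferon gamma receptor chains Ifngr1 and Ifngr2 differed by 0.05 and 0.21 under AR7, −0.32 and −0.63 under CA39, and 0.13 and 0.03 under CA77.

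The receptors were thus lowest in the CA39 culture, where Stat2 and Irf9 were highest. The kinase Jak1 differed by 0.07, −0.09 and 0.07 and Jak2 by 0.02, −0.10 and 0.12, whereas Tyk2 differed by 0.46, −0.19 and 0.60 with AR7, CA39 and CA77. All 7 detected receptors and kinases were below untreated with CA39, 5 of them beyond the tolerance (27.2% of all genes), and 1 (Ifngr2) was past 1.5-fold lower (3.94%). With AR7 all 7 were above untreated, 3 of them beyond the tolerance (15.0%). With CA77 6 were above and 1 below, with 2 above by more than the tolerance (19.4%) and 1 (Tyk2) past 1.5-fold higher (3.74%). Over all genes, 12598 of 27894 were below untreated with CA39. Above untreated were 10526 of 27855 with AR7 and 11666 of 28126 with CA77. Ifnlr1, the receptor of type III interferon, was likewise not detected in any culture.

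Among the further interferon-stimulated genes, the GTPase Tgtp1 was past 2-fold higher with CA39. Its log2 level was 7.55 on untreated, 8.56 on CA39 and 6.70 on CA77, and it was not well above background on AR7. The differences were 1.01 with CA39, −0.85 with CA77 and a bound of −0.73 with AR7, so CA39 was the high culture and the order of AR7 and CA77 is not known. Gbp6 was past 2-fold higher with CA77 by 1 probe, at 8.53, 8.33, 8.36 and 10.35, whereas its second probe gave 7.84 on untreated and 7.98 on CA77, a difference of 0.13 against 1.82. The Gbp6 probes disagree, and the CA77 call of that gene rests on 1 spot. Over the 31 genes of this list compared with untreated, the median difference was −0.02 under AR7, 0.00 under CA39 and −0.04 under CA77.

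Markers of the fibroblast itself differed with CA39 as well. All 9 fibroblast markers had a probe, 8 were detected on the untreated array, and Pdgfrb, a defining growth factor receptor, was not well above background there, on AR7 or on CA77. With CA39 7 of 9 were above untreated by more than the tolerance (20.9% of all genes), with Fn1 at 1.47, Col1a1 at 1.06 and Pdgfrb at a bound of 2.90, and S100a4 was below it at −0.22. With AR7 6 of 8 were below untreated by more than the tolerance (17.5%), with Col1a1 past 2-fold lower at −1.04, and with CA77 5 of 8 were (25.5%). The log2 of the summed marker signal was 19.89 in untreated cells, 19.65 under AR7, 20.26 under CA39 and 19.72 under CA77. The keratin Krt8 was 2.38 above untreated with CA39 and the epithelial adhesion gene Epcam was detected with CA39 alone (a bound of 1.65). Of 10 leukocyte markers with a probe, the common leukocyte gene Ptprc had log2 levels of 6.33 on untreated and 6.82 on CA77 and no detection on AR7 and CA39. All 10 were detected on the untreated array, 7 under AR7, 6 under CA39 and 9 under CA77. The log2 of their summed signal was 16.60, 16.69, 16.74 and 16.74 in that order, so the dim Ptprc does not stand for the list. The medians over the 10 were 0.00 under AR7, 0.00 under CA39 and −0.16 under CA77, where 5 were below untreated by more than the tolerance and 2 above it (25.5% and 19.4% of all genes), from −0.88 for Csf1r to 0.49 for Ptprc. The part of these markers in the Bst2, Isg15 and Stat2 values was not tested.

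**Figure D5:**
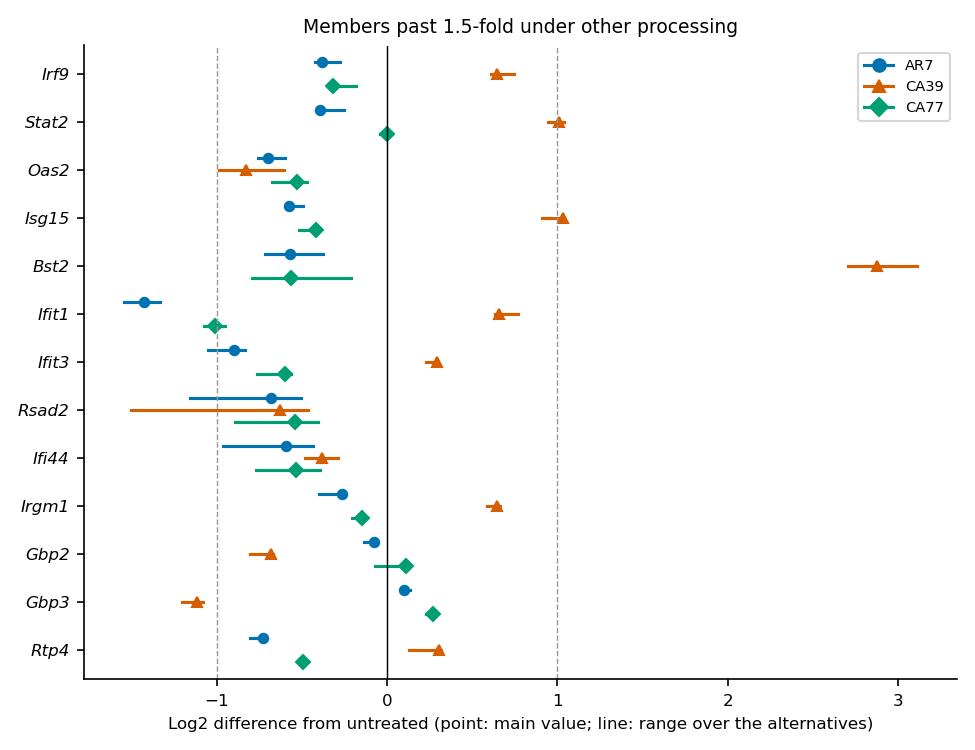
Log2 difference from untreated of the 13 members past 1.5-fold with any compound, with the value as reported (symbol) and its range over other ways of processing the arrays (line), and dashed lines at 2-fold. Bst2 with CA39 stays between 2.70 and 3.11, and the dim gene Rsad2 has the widest lines.

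The differences of the leading members were computed again under other processing. Bst2 with CA39 was past 2-fold in 11 of 11 alternatives, between 2.70 and 3.11. Gbp3 with CA39 was past 2-fold in 10 of 10, between −1.21 and −1.08, and Ifit1 with AR7 in 10 of 10, between −1.55 and −1.33. Isg15 with CA39 lay between 0.91 and 1.03 and was past 2-fold in 6 of 11, and Stat2 lay between 0.95 and 1.04 and was past it in 9 of 11. For these 2 genes and for Ifit1 with CA77, between −1.07 and −0.95, the side of the 2-fold line is therefore a matter of the settings, while the sign was the same in each alternative run.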

How the data were processed

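Cy3-labelled RNA of 4 NIH-3T3 cultures was read on 1-colour Agilent mouse arrays, 1 array per group, and grouped by the labels. The authors' scanner software, Feature Extraction 10.7.3.1 (array design build mm9), gave the deposited intensity of each of 62976 spots on a linear scale, with local background and quality marks. The deposited series table equals the background-subtracted intensity, without scaling or log2 transformation. The submitters' processing notes name oligo and RMA, whose values were not used here.

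With limma 3.58.1 (R 4.3.3), median spot and background intensities of all spots were corrected by normexp with offset 0. Control spots were left out, arrays were quantile normalized and put on the log2 scale, and spots marked as non-uniform or outliers (142 to 328 per array) were dropped. No spot was saturated. Spots of a probe were averaged, and detection of a probe required signal well above background in over 50% of its spots. Accessions were matched without versions to RefSeq (GRCm38.p6), which named 27506 of 55681 probes. Member promoters were matched by symbol to RefSeq promoters of that build. The brightest probe stands for a gene, and 9 members had several.

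Members, lists and tests were chosen with earlier results of these data known. Every member past 1.5-fold in a comparison with untreated has its levels printed. Of the other lists, genes past 2-fold are named, with the interferon receptors, kinases and Ifnb1, and other genes named from them were picked after their values were seen. Results of a further gene are not reported here. The steps were tested on simulated data. The number of arrays limits the precision. Alternatives changed the background correction, scaling, floor, detection filter, spot filter, choice of probe, slide area, neighbouring spots and fold threshold.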

Additional observations from a re-analysis of the deposited data

How the results depend on the processing

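No paired analysis was possible because each group has 1 array, and for the same reason no array could be left out. Of 66 medians of the members under alternatives 0 moved by more than the tolerance, and of 405 values of named members 33 did, with no called value changing sign. Counts of members past the fold threshold moved by more than 1.5 times in 18 of 72 cases, the 1.5-fold threshold included. With AR7 the count of 1 became 3 with 75th percentile scaling, with quantile-normalized processed signal, without floor and filter, and with the lowest detected signal as the floor. It became 2 with the deposited table and with the mean of all detected probes. With CA77 the count of 1 became 0 with an offset of 50 and after subtraction of the median difference of neighbouring spots, and 2 without floor and filter. Keeping only spots in grid rows over 160, which left 28 members against untreated, gave 0 with AR7, 2 with CA39 (4 as reported) and 0 with CA77, and 4 between CA39 and AR7 (8 as reported) and 3 between CA39 and CA77 (5 as reported). Ifit1, Ifit3, Gbp2, Gbp3, Rtp4 and Rsad2 had no value in those rows, so their calls were left out of these counts and not checked. At 1.5-fold the counts were 6 under AR7, 10 under CA39 and 2 under CA77, and 11 between CA39 and CA77. The count between CA77 and AR7 was 0 in each alternative. With 75th percentile scaling, the higher calls made up, among all genes past 2-fold with CA77, 65.0% (64.8% with the deposited table, 77.9% as reported). That share was 58.0% for genes detected on all 4 arrays, and in grid rows over 160 it was 43.1%, where lower calls were the majority. The AR7 share of 82.3% became 58.1% in those rows, 65.2% with the lowest floor, 70.4% without floor and filter and 71.9% for genes detected on all arrays, and the CA39 share of 76.1% became 65.7% for the latter. For members with CA39, the split of 3 higher and 1 lower became 1 and 2 with 75th percentile scaling or the deposited table, 2 and 2 with quantile-normalized processed signal or the mean of probes, 3 and 3 without floor and filter, and 3 and 2 with the lowest floor. Apart from the number of genes left in the slide area, the cause was not tested.

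Signal over background limits the dim members (Irf7, Ifih1, Oasl1, Rsad2 and Ifi44), whose differences are bounds or rest on signal close to the floor. Members with 1 spot have no error of their own, and 1 culture per condition leaves the spread between cultures unknown.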

Other observations

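Of 19 genes of antigen presentation outside the list above 18 had a probe, and 0 were past 2-fold with any compound, beside at most 3.69% higher and 1.16% lower of all genes. Their median difference from untreated was 0.11 under AR7, −0.02 under CA39 and 0.07 under CA77. The highest AR7 value was that of Ciita, the transactivator of MHC class II genes, at 0.76 close to background, and the highest CA77 value was a bound of 0.67 for the class II gene H2-Aa, detected on that array alone. Cd74, the invariant chain of MHC class II, had log2 levels of 11.18 in untreated cells, 11.83 under AR7, 11.20 under CA39 and 11.57 under CA77, highest with AR7. Its differences from untreated were 0.66, 0.02 and 0.39. Nlrc5, the transactivator of MHC class I genes, differed by 0.42, 0.01 and 0.36 with AR7, CA39 and CA77, and the peptide-loading chaperone Tapbp by 0.30, −0.28 and 0.28. The class II genes H2-Ab1 and H2-Eb1 were near or under background on all arrays. Psmb10, a further catalytic subunit of the immunoproteasome, was lowest with CA39, at −0.57, beside −0.03 with AR7 and −0.15 with CA77.

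The adaptors of nucleic acid sensing had a median difference of 0.15 under AR7, −0.25 under CA39 and 0.08 under CA77 over 9 genes. Sting1, the adaptor of cytosolic DNA sensing, stood apart within that list with CA39, 0.86 above untreated (log2), beside 0.40 with AR7 and 0.36 with CA77. Among the STAT and feedback genes, Stat3 was 0.96 above untreated with CA39, beside 0.08 with AR7 and 0.05 with CA77. Its feedback inhibitor Socs3 was 0.54 above untreated with CA39, while Socs1, which restrains interferon receptors, was −0.52 from it. The interferon-stimulated gene Zbp1, a sensor of Z-form nucleic acid, differed by −0.57 under AR7, 0.80 under CA39 and −0.32 under CA77, and Ifi27l2a by −0.48, 0.54 and −0.57. These genes were named after their values were seen.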
